A study of Mus musculus with 56 samples.

Results

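The comparison described here set the livers of 3 mice given the LNA gapmer HTS-3 against the livers of 3 mice given the LNA gapmer NTS-1, all collected 8 h after 1 subcutaneous injection of 25 mg/kg in a volume of 10 mL/kg. The 6 arrays were chosen by their sample titles and are 6 of the 56 arrays of the series. All animals were male CD-1 mice, an outbred strain, aged 6 to 8 weeks at the start of dosing, and each array holds the liver RNA of 1 mouse. The labels call NTS-1 a sequence without toxicity and HTS-3 a severely toxic one, and no HTS-3 mouse could be sampled at 72 h because those animals died or were moribund from 48 h on. The series also holds 3 mice at 8 h given the vehicle, a phosphate-buffered saline, and 4 mice at 8 h given 25 mg/kg of TS-2, a gapmer called toxic. At 16 h it holds 4 HTS-3 mice and 4 NTS-1 mice, which are other animals. Each group had 10 dosed mice per time, of which the 3 or 4 with the highest score of hepatic hypertrophy were put on arrays, so the groups are selected mice and not a random sample. None of the sources used here gives the base sequences, targets or modification patterns of the gapmers.

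A gapmer is a single-stranded oligonucleotide with a central stretch of DNA between flanks of locked nucleic acid (LNA), a sugar-modified nucleotide that binds RNA tightly. The DNA part, paired with an RNA, is a substrate of RNase H1, a nuclear and mitochondrial enzyme that cuts the RNA strand, so a gapmer lowers its target and can lower other transcripts it pairs with. Injected oligonucleotides gather in the liver, in hepatocytes and in the cells lining the sinusoids. Cells also carry sensors of foreign nucleic acid, the endosomal Toll-like receptors and the cytosolic RIG-I-like receptors, which switch on type I interferon. Interferon then acts through its receptor on genes with an interferon-stimulated response element, and many products of those genes block viral RNA or are themselves sensors. Type II interferon is known for inducing the guanylate-binding proteins, the immunity-related GTPases and the antigen presentation genes.

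Intensities are the authors' RMA values on a linear scale, for which the lowest possible value on these arrays is 4.56, and differences are given in log2 as HTS-3 minus NTS-1 with their standard error (SE). An intensity of 32, or 5 in log2, was taken as the limit under which a gene counts as dim. A fold whose lower group has a mean under that limit is given as "at least", with values under 32 raised to 32. Lists of 3 intensities are in the order of mouse 1, mouse 2 and mouse 3 of the group. A gene passed the test where its Benjamini-Hochberg adjusted p from limma was under 0.05.

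The hepatocyte markers were high on every array, with a summed intensity of the 9 measured markers between 303000 and 337000 in HTS-3 mice and between 326000 and 353000 in NTS-1 mice. In the HTS-3 group, 2 mice stood apart. The library labelled HTS-3 8 h mouse 3 is given as an 8 h sample by its title and its source, while its description names 16 h. Its mean over the array's actin and Gapdh control probe sets was 13.45 in log2, against 13.93 to 14.30 on the other arrays of the HTS-3, NTS-1 and vehicle groups at 8 h, and its bacterial hybridisation controls averaged 12.01 against 11.46 to 11.77. HTS-3 mouse 1 was the highest of the 3 HTS-3 mice in 54.9% of all genes tested and correlated with mouse 3 at only 0.952 over genes, against 0.986 to 0.988 between the NTS-1 mice. Counts are therefore given with and without these mice. Nothing in the labels says more on how mice were kept or killed together. The p-values rest on the spread between mice within a group, pooled over the 11 groups fitted and not taken from these mice alone.

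Between HTS-3 and NTS-1, 106 of 9137 genes tested passed (percent called 1.16%). Of these, 98 were lower after HTS-3 (1.07%) and 8 were higher (0.0876%). The 3 HTS-3 values and the 3 NTS-1 values did not overlap in any of the 106 genes. Over all genes tested, the groups were apart with HTS-3 lower in 548 genes (6.0%) and with HTS-3 higher in 415 genes (4.54%), and the median difference was 0.0. In 86 of the 98 lower genes the means differed by 2-fold or more. Without HTS-3 mouse 3, 79 genes passed (0.865%), 66 lower (0.722%) and 13 higher (0.142%), and 70 of these were among the 106. With that mouse counted as a 16 h mouse, as its description has it, 61 genes passed, 54 lower and 7 higher. Without HTS-3 mouse 1, 127 genes passed (1.39%), 119 lower (1.3%) and 8 higher (0.0876%), of which 83 were among the 106. With only the HTS-3, NTS-1 and vehicle groups of 8 h in the fit, 77 genes passed, 52 of them among the 106.

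Set beside the vehicle mice of the same time, the 98 lower genes fell into 2 groups of equal size. In 49 genes the vehicle mean lay nearer to HTS-3, and every called member of the interferon lists is here. In the other 49 genes the vehicle mean lay nearer to NTS-1, and long genes are frequent here. The first group had a median difference of -2.63 and a median fold of 6.2, and 27 of its genes belonged to the interferon lists. Its median difference from vehicle was 0.32 for HTS-3 and 3.08 for NTS-1, in comparisons that share those mice, and NTS-1 was higher than vehicle by the test in 45 of the 49. The second group had a median difference of -1.67 and a median fold of 3.18, and none of its genes belonged to the interferon lists. Over all genes tested 108 of 9137 belonged to them, so none among 49 is near that share. The median difference of the second group from vehicle was -1.55 for HTS-3 and 0.01 for NTS-1, and HTS-3 was lower than vehicle by the test in 36 of the 49. The other members of each set did not pass against vehicle. Against vehicle, 80 genes passed for HTS-3 (0.876%), 29 higher (0.317%) and 51 lower (0.558%), and 81 for NTS-1 (0.887%), 80 higher (0.876%) and 1 lower (0.0109%). The grouping uses the same HTS-3 and NTS-1 values as the test and is a description.

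**Figure D1:**
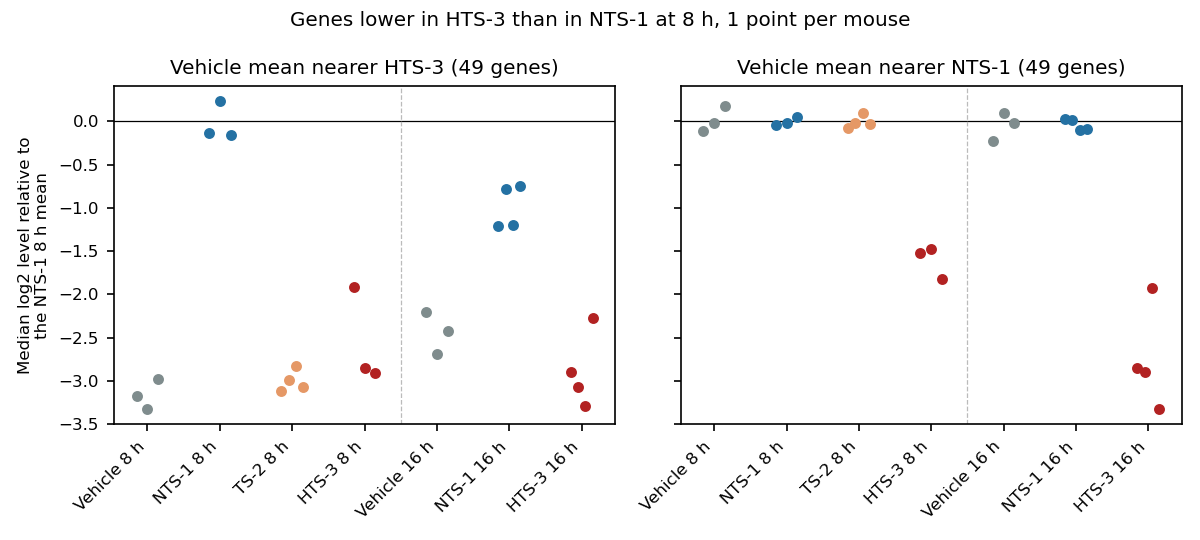
Median log2 level of the 49 lower genes whose vehicle mean was nearer to HTS-3 (left) and of the 49 whose vehicle mean was nearer to NTS-1 (right), 1 point per mouse, relative to the NTS-1 mean at 8 h, with 8 h groups left of the dashed line and 16 h groups right of it. On the left the 3 HTS-3 mice at 8 h lie at -1.91, -2.85 and -2.92, mice 2 and 3 within the range of the TS-2 mice and all 3 above the vehicle mice, and on the right they lie at -1.52, -1.48 and -1.82, below every vehicle, NTS-1 and TS-2 mouse at 8 h.

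TS-2, whose arrays entered the filter, the choice of probe sets and the variance of the fit but not the comparison, had its mean nearer to HTS-3 in 47 of the 49 genes of the first group and nearer to NTS-1 in 47 of the 49 genes of the second. Over all genes tested, its mean was nearer to HTS-3 in 4084 and to NTS-1 in 5053. In both groups of genes TS-2 thus lay with vehicle. The plot of class medians by mouse shows the 4 TS-2 mice beside the 3 vehicle mice in both panels.

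The promoters of the first group often held the core of an interferon-stimulated response element, and 5 of them are shown here as examples. The motif searched was GAAA, any 2 bases and GAAA again, on both strands (TTTC, any 2 bases and TTTC on the other strand), overlapping matches included, in the RefSeq windows from 250 bases before to 50 bases after each annotated start (GRCm38.p6). Of the first group, 41 genes had a window and 16 of them held a match (39.0%). Of the second group, 2 of 40 genes did (5.0%), and of the 8 higher genes 0 of the 5 with a window. Among all genes tested 282 of 7504 held one (3.76%), and among all genes with a window 1079 of 27025 did (3.99%). The stretches below lie upstream of the start, run 5′ to 3′ on the strand of the gene, and have the matched letters in capitals.
Ifit1, chr19:34640764-34640853, plus strand: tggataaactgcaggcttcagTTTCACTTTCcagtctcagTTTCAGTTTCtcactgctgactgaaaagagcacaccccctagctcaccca
Ifit3, chr19:34583367-34583456, plus strand: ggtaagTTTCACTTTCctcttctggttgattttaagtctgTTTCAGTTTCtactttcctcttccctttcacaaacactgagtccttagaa
Oas1a, chr5:120907526-120907579, minus strand: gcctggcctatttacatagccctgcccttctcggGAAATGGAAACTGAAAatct
Rsad2, chr12:26456523-26456612, minus strand: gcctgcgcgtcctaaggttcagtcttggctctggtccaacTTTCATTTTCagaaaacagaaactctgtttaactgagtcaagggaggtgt
Trim30a, chr7:104465194-104465269, minus strand: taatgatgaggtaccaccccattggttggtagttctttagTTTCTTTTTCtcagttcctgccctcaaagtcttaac
Ifit1 and Ifit3 each held 2 matches in the same orientation, and in Oas1a 2 matches overlap. The neighbouring paralogs Trim30a and Trim30d have nearly the same stretch, so such members are not independent of each other. A match is a description of the letters and not a measured binding site.

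The antiviral effectors were the list with the most called members. Of the 34 measured interferon effectors, 21 were lower in HTS-3 than in NTS-1 and 0 higher, against 1.07% of all genes lower. Their median difference was -2.0, and all 34 differences were negative. Against vehicle, 24 of the 34 were higher in NTS-1 with a median of 3.17 (percent called 0.876% for all genes higher), and 0 were higher in HTS-3 with a median of 0.69 (0.317%). These comparisons share the gapmer mice with the main one. Without HTS-3 mouse 1, 22 were lower, and without HTS-3 mouse 3, 17. With array weights, or with the compared groups alone in the fit, 12 were lower.

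Ifit1, which binds viral RNA that lacks the methylated cap of host messages, had the largest difference of all genes. Its intensities were 386, 121 and 80.2 in HTS-3 mice and 8550, 13400 and 7400 in NTS-1 mice, beside 22.1, 102 and 91.7 in vehicle mice. The difference was -5.93 (SE 0.82, adjusted p = 2.54e-05), 60.9-fold lower, and HTS-3 mice 1 and 2 were above the vehicle mice while mouse 3 was among them. Ifit3, its partner, read 728, 288 and 210 in HTS-3 mice and 7500, 15500 and 6770 in NTS-1 mice (difference -4.71, SE 0.61, adjusted p = 8.48e-06). Ifit2, of the same family, read 685, 157 and 49.7 against 2290, 2800 and 2400 (difference -3.83, SE 0.48, adjusted p = 5.77e-06). In all 3 genes HTS-3 mouse 1 was the highest and HTS-3 mouse 3 the lowest of the HTS-3 mice, and none reached an NTS-1 mouse.

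The oligoadenylate synthetase family senses double-stranded RNA and activates RNase L, and Oasl1 is a relative that lacks the synthetase activity. Oasl1 read 58.9, 66.0 and 38.8 in HTS-3 mice and 1590, 2740 and 1720 in NTS-1 mice (difference -5.20, SE 0.62, adjusted p = 2.49e-06). Oasl2 read 171, 39.7 and 15.8 against 664, 853 and 590 (difference -3.87, SE 0.51, adjusted p = 1.33e-05). Oas1a read 274, 160 and 112 against 2060, 1790 and 1160 (difference -3.26, SE 0.28, adjusted p = 2.44e-09). The vehicle mice read 31.1 to 38.8 for Oasl1 and 66.4 to 101 for Oas1a, so all 3 HTS-3 mice were above every vehicle mouse for Oas1a, and 2 of the 3 for Oasl1.

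Other effectors showed the same separation without overlap. Rsad2 (viperin), an enzyme that makes a chain-terminating nucleotide, read 296, 186 and 132 in HTS-3 mice and 2190, 4170 and 1270 in NTS-1 mice (difference -3.55, SE 0.48, adjusted p = 2.02e-05). Cmpk2, a mitochondrial nucleotide kinase whose gene lies next to Rsad2, read 172, 59.6 and 140 against 1350, 2110 and 1360 (difference -3.80, SE 0.43, adjusted p = 7.69e-07). Phf11d, an interferon-stimulated PHD finger gene, was close to constant outside NTS-1. It read 95.3, 58.7 and 58.7 in HTS-3 mice, 56.6 to 60.2 in vehicle mice and 1100, 1300 and 836 in NTS-1 mice (difference -3.94, SE 0.26, adjusted p = 6.88e-12).

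Some of the genes were under the dim limit in every 8 h mouse not given NTS-1. Ddx60, a helicase that acts with RIG-I, read 5.78, 5.7 and 5.52 in HTS-3 mice, 5.7 to 5.89 in vehicle mice and 102, 214 and 166 in NTS-1 mice, at least 4.8-fold lower after HTS-3 (adjusted p = 1.65e-09). Ms4a4c, a membrane protein of monocytes and other myeloid cells, read 24.9, 8.42 and 7.71 against 549, 537 and 181, at least 11.8-fold lower (adjusted p = 0.00031). Trim30d read 12.1, 6.67 and 20.6 against 42.4, 960 and 502, at least 8.55-fold lower (adjusted p = 0.00806), and its NTS-1 mouse 1 was far under the other NTS-1 mice. That call was lost without HTS-3 mouse 2 (adjusted p = 0.0601) and without NTS-1 mouse 2 or 3 (adjusted p 0.135 and 0.0701). Gm9706, whose sequence resembles the ubiquitin-like protein gene Isg15, read 163, 151 and 161 against 3280, 2240 and 1990 (difference -3.95, SE 0.20, adjusted p = 2.75e-14). Its probe set can cross-hybridise with related transcripts, and which transcript it measured is uncertain.

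**Figure D2:**
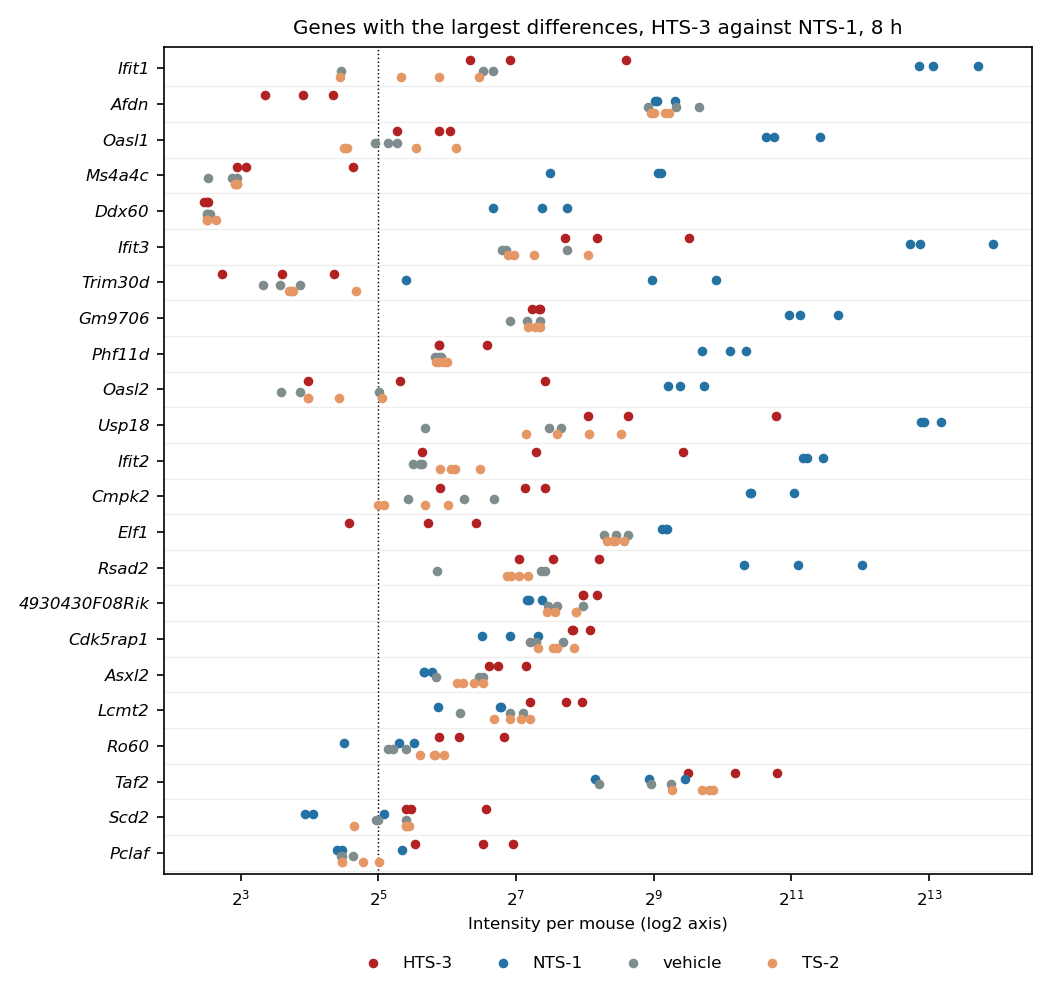
Intensity in each mouse (log2 axis, dotted line at 32) of the 15 genes with the largest negative and the 8 genes with positive differences between HTS-3 (red) and NTS-1 (blue) at 8 h, with the 3 vehicle mice (grey) and the 4 TS-2 mice (orange). For Ifit1 the NTS-1 mice lie at 7400 to 13400 and all other mice at 386 or less, while for Afdn the HTS-3 mice lie at 10.2 to 20.2 and all other mice at 485 or more.

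Among the nucleic acid sensors, 4 of 15 measured members were lower in HTS-3 and 0 higher, against 1.07% of all genes lower, with a median difference of -0.29. These were the RIG-I-like receptors and the kinase PKR. Dhx58 (LGP2) read 65.1, 58.5 and 36.6 in HTS-3 mice and 364, 572 and 445 in NTS-1 mice (difference -3.13, SE 0.34, adjusted p = 4.12e-07). Ddx58 (RIG-I) read 311, 260 and 195 against 695, 1030 and 953 (difference -1.81, SE 0.31, adjusted p = 0.000516). Ifih1 (MDA5) read 1740, 667 and 782 against 2430, 3230 and 4120 (difference -1.72, SE 0.42, adjusted p = 0.0329), and this call was lost without HTS-3 mouse 2 or 3 (adjusted p 0.178 and 0.176) and without NTS-1 mouse 2 or 3 (adjusted p 0.132 and 0.18). Eif2ak2 (PKR), which halts translation on double-stranded RNA, read 148, 84.3 and 16.3 against 403, 460 and 475 (difference -2.92, SE 0.57, adjusted p = 0.00297), with an adjusted p of 0.0605 without HTS-3 mouse 3. An adaptor of the Toll-like receptors and a kinase of the pathway had differences near 0, with Myd88 at -0.12 (95% interval -0.55 to 0.31) and Tbk1 at -0.26 (95% interval -0.71 to 0.18). Without HTS-3 mouse 3, 2 of the 15 sensors were lower.

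Irf7, the transcription factor that amplifies type I interferon, was the only one of 11 measured interferon transcription factors to pass. Its intensities were 317, 136 and 86.1 in HTS-3 mice, 1440, 1630 and 1190 in NTS-1 mice and 55.9 to 70.5 in vehicle mice (difference -3.18, SE 0.40, adjusted p = 5.22e-06). Irf3, which is activated by phosphorylation and little by transcription, differed by 0.14 (95% interval -0.26 to 0.53). Irf9 had a difference of -1.05 (95% interval -1.89 to -0.20) that did not pass over all genes. Of 9 measured interferon ligands and receptors 0 passed. Their median difference was 0.06.

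Of the 12 interferon and cytokine brakes, Usp18 was the 1 that passed. Usp18 removes ISG15 from proteins and blocks the interferon receptor. It read 1750, 397 and 265 in HTS-3 mice and 7510, 7800 and 9270 in NTS-1 mice (difference -3.84, SE 0.62, adjusted p = 0.000222). Herc6, a ligase that attaches ISG15 in mice, read 650, 141 and 97.4 against 893, 1140 and 874 (difference -2.21, SE 0.57, adjusted p = 0.047). The Herc6 call was lost without HTS-3 mouse 2 (adjusted p = 0.195) or 3 (adjusted p = 0.324) and without any of the NTS-1 mice (adjusted p 0.117 to 0.214). In both genes HTS-3 mouse 1 read several times higher than the other HTS-3 mice.

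HTS-3 mouse 1 stood apart most in genes typical of type II interferon. The 9 measured interferon-inducible GTPases had a median difference of -1.14, all 9 negative, and 0 passed. Their summed intensity was 154000 in HTS-3 mouse 1, but 22300 and 23600 in HTS-3 mice 2 and 3, beside 58900 to 82200 in NTS-1 mice and 17600 to 26400 in vehicle mice. HTS-3 mouse 1 was above every NTS-1 mouse in 9 of 9 of these genes, whereas HTS-3 mice 2 and 3 were above every NTS-1 mouse in 0. Gbp6, a guanylate-binding protein, read 13200, 455 and 680 in HTS-3 mice and 7970, 9180 and 6010 in NTS-1 mice. Igtp, an immunity-related GTPase, read 29000, 3150 and 2240 against 14000, 14400 and 11000. Without HTS-3 mouse 1 the median was -2.29 and 7 of the 9 GTPases were lower (percent called lower 1.3% over all genes), among them Gbp7 with a difference of -2.97 (SE 0.42, adjusted p = 3.52e-05). Mouse 1 was singled out after its values in these genes were seen, and leaving it out takes its spread out of the fit. The calls without it are therefore a description and not a test.

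HTS-3 mouse 1 was also high in the antigen presentation genes. Of 16 measured members 0 passed, with 7 differences negative, 9 positive and a median of 0.0016, and HTS-3 mouse 1 exceeded every NTS-1 mouse in 15 of the 16. It did so in 4342 of all 9137 genes tested. Tap1, a peptide transporter subunit, read 275, 11.0 and 6.79 in HTS-3 mice and 72.9, 107 and 46.8 in NTS-1 mice. Psmb9, a subunit of the immunoproteasome, read 10600, 1480 and 2310 against 4850, 4480 and 4420. H2-Ab1, a class II gene, read 6320, 647 and 926 against 944, 492 and 604, so that HTS-3 mice 2 and 3 overlapped the NTS-1 mice. Without HTS-3 mouse 1, Psmb8 (difference -1.11, adjusted p = 0.0193), Tap1 (adjusted p = 0.0309) and Nlrc5 (adjusted p = 0.00778) were lower in HTS-3, but HTS-3 mice 2 and 3 were under the dim limit for Tap1 and Nlrc5, so the size of these differences is not given. Here too mouse 1 was singled out after its values were seen, so these calls are a description.

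The antiviral effectors, as a list, did not follow this mouse in the same way. HTS-3 mouse 1 was the highest HTS-3 mouse in 30 of 34 effectors, but exceeded every NTS-1 mouse in only 2 of the 34. Its median over the effectors was 1.21 above the vehicle mean in log2, beside 0.41 and 0.16 in HTS-3 mice 2 and 3. Over the GTPases the corresponding medians were 3.67, 0.04 and 0.04. Other interferon lists followed mouse 1 more than the effectors did. Over the 5 measured ubiquitin-like conjugation genes the medians were 2.49, 0.33 and 0.08, though mouse 1 exceeded every NTS-1 mouse in only 1. It exceeded every NTS-1 mouse in 8 of 15 sensors and 8 of 11 interferon transcription factors, beside 4342 of all 9137 genes. Cxcl10, a T cell attracting chemokine induced by both types of interferon, read 5950, 147 and 284 in HTS-3 mice and 5680, 6050 and 2520 in NTS-1 mice, and its difference of -2.81 (SE 0.76) had an adjusted p of 0.0667. These values were sorted by mouse after they were seen and carry no test of their own.

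Of the listed markers of other cells, Ms4a4c was the 1 that passed. Outside the lists, and named after their values were seen, Ms4a6c, a relative of Ms4a4c, Emcn, an endothelial sialomucin, and Cd72, a B cell receptor protein, were also lower, with adjusted p of 0.000287, 0.00476 and 0.000918. In whole liver, a change in the number of cells of a type and a change in RNA per cell cannot be told apart. Of 19 measured macrophage and Kupffer cell genes 0 passed, with a median difference of 0.32. Their summed intensity was 38900 to 72400 in HTS-3 mice, 32200 to 49000 in NTS-1 mice and 23200 to 27700 in vehicle mice, so both gapmer groups lay above vehicle. The Kupffer cell lectin Clec4f differed by 0.17 (95% interval -0.30 to 0.64). Of 4 measured monocyte genes 1 was lower, Ms4a4c, and the summed intensity was 34400 to 63600 in HTS-3 mice and 50400 to 62900 in NTS-1 mice. The part of monocytes in the Ms4a4c difference was not tested. Of the 12 listed neutrophil genes 2 were measured above the dim limit, S100a8 and S100a9, with a summed intensity of 184 to 944 in HTS-3 mice, 139 to 492 in NTS-1 mice and 41.6 to 151 in vehicle mice. No member of the T and NK cell, B cell, sinusoidal endothelial, stellate cell or hepatocyte lists passed.

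Among the 49 genes with the vehicle mean nearer to NTS-1, Afdn had the largest difference. It encodes afadin, which links nectins at cell-cell junctions to actin. Its intensities were 15, 20.2 and 10.2 in HTS-3 mice, 516, 632 and 531 in NTS-1 mice, 485, 643 and 805 in vehicle mice and 499 to 597 in TS-2 mice. The difference was -5.26 (SE 0.31, adjusted p = 6.33e-13), at least 17.4-fold lower, and the HTS-3 mice lay at levels under the dim limit. Of 20 measured adherens junction and actin genes Afdn was the 1 that passed, and the median of the list was -0.04. The call on Afdn held in every alternative processing tried.

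Elf1, an ETS transcription factor of blood and other cells, was next. It read 85.6, 52.8 and 23.8 in HTS-3 mice, 577, 554 and 587 in NTS-1 mice and 311, 350 and 394 in vehicle mice (difference -3.59, SE 0.31, adjusted p = 2.44e-09). Kmt2c, a histone methyltransferase of enhancers, read 7.34, 7.9 and 10.5 against 81.0, 83.4 and 81.9, at least 2.57-fold lower (adjusted p = 4.12e-07). Another measured probe set of Kmt2c had a difference of only -0.37, so the size of its fall depends on the probe set. Zfp385b, a zinc finger gene, read 34.4, 34.4 and 49.9 against 386, 225 and 306 (difference -2.94, SE 0.41, adjusted p = 2.71e-05). Med27, a subunit of the Mediator complex, read 15.9, 9.27 and 14.9 against 73.7, 81.9 and 101, at least 2.65-fold lower (adjusted p = 5.56e-07). Kmt2c, Zfp385b and Med27 were chosen after their values were seen, as the next in size in this set whose calls held in every alternative tried.

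A further 3 genes of this set are named here after their values were seen. Atf2, a stress-kinase transcription factor, read 415, 383 and 401 in HTS-3 mice and 1360, 1350 and 1300 in NTS-1 mice (difference -1.74, SE 0.27, adjusted p = 0.000142). Enox2, a surface oxidase, read 157, 130 and 270 against 595, 573 and 753 (difference -1.85, SE 0.22, adjusted p = 3.36e-06). Apc, the scaffold that holds beta-catenin in check, read 94.4, 188 and 137 against 568, 690 and 521 (difference -2.13, SE 0.50, adjusted p = 0.0253), and its call was lost without HTS-3 mouse 1 (adjusted p = 0.125) or 3 (adjusted p = 0.0859) and without any 1 of the NTS-1 mice (adjusted p 0.0643 to 0.138).

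Of 18 measured RNase H and RNA decay genes 2 were lower, against 1.07% of all genes. Drosha, the nuclear nuclease that starts microRNA processing, read 135, 154 and 135 in HTS-3 mice and 359, 352 and 318 in NTS-1 mice (difference -1.28, SE 0.26, adjusted p = 0.0059). The Drosha call was lost with the mean of its probe sets (adjusted p = 0.0941), with array weights (0.124) and with HTS-3 mouse 3 moved to 16 h (0.101). Dcp2, which removes the cap from messenger RNA, read 49.9, 50.4 and 24.1 against 138, 228 and 142 (difference -2.07, SE 0.46, adjusted p = 0.0146), and its adjusted p was 0.161 without HTS-3 mouse 3 and 0.136 without NTS-1 mouse 2. For Dcp2 the vehicle mice read 83.3, 83.7 and 92.9, between the HTS-3 and the NTS-1 mice. Rnaseh1, which encodes the enzyme that gapmers recruit, was near the dim limit at 39.5, 39.5 and 28.7 against 36.5, 39.5 and 39.5, a difference of -0.12 that did not pass. The vehicle mice read 39.5, 39.5 and 39.0. The same value recurs in HTS-3, NTS-1 and vehicle mice, so this probe set says little on Rnaseh1. None of the 14 measured gapmer-binding nuclear proteins passed, and their median difference was 0.03. Npm1, a nucleolar chaperone of that list, read 16700, 16700 and 17400 against 14300, 14600 and 14400 (difference 0.23, SE 0.13, adjusted p = 0.739).

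The second set of genes was long. Over the 48 of its 49 genes with an annotated genomic length (RefSeq genes, GRCm38.p6), the median was 106 kb, and 26 of them (54.2%) were 100 kb or longer. Over the 48 of 49 genes with the vehicle mean nearer to HTS-3, the median was 18 kb and 3 (6.25%) were 100 kb or longer. Among all genes tested the median was 22.8 kb and 11.0% were 100 kb or longer. Zfp385b spans 407 kb, Exoc4 725 kb and Rabgap1l 574 kb, but Prmt5 spans only 10.3 kb and Gadd45g 1.8 kb. The lengths are those of the whole gene, introns included, and they are given as a description without a test.

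**Figure D3:**
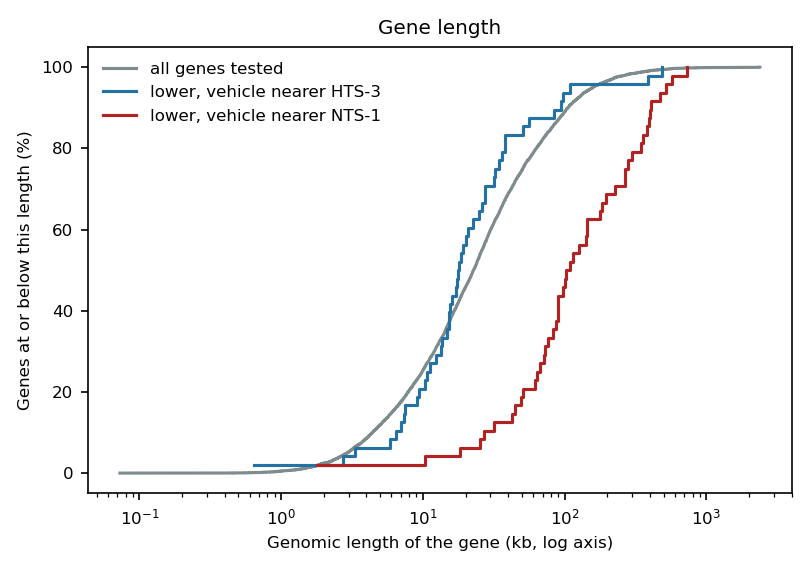
Cumulative share of genes (%) by genomic length (kb, log axis) for all genes tested (grey), the 48 genes lower in HTS-3 with the vehicle mean nearer to HTS-3 (blue) and the 48 with the vehicle mean nearer to NTS-1 (red). The red curve lies to the right, with a median of 106 kb against 22.8 kb for all genes tested and 18 kb for the blue curve.

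Gadd45g, a growth arrest gene of the immediate early list, was the 1 of 16 measured members that was lower. It read 250, 175 and 169 in HTS-3 mice, 718, 1380 and 1220 in NTS-1 mice, 765 to 5260 in vehicle mice and 150 to 331 in TS-2 mice (difference -2.45, SE 0.63, adjusted p = 0.0491). The TS-2 mice lay with HTS-3 here. The call was lost when any 1 mouse of either group was left out (adjusted p 0.0673 to 0.243). Of 20 measured phosphatase and long receptor genes 2 were lower, against 1.07% of all genes, with a list median of -0.40. These were Elf1 and Dock4, which are neither phosphatases nor receptors. Without HTS-3 mouse 3 the list median was -0.05, and 10 of the 20 differences were negative.

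Dock4, an activator of the GTPase Rac, showed a split within the HTS-3 group. It read 42.4, 41.2 and 164 in HTS-3 mice, 177, 180 and 189 in NTS-1 mice and 177 to 211 in vehicle mice (difference -1.46, SE 0.30, adjusted p = 0.00572). HTS-3 mouse 3, whose labels disagree on the time, was close to the NTS-1 mice, and the call was lost without HTS-3 mouse 1 (adjusted p = 0.0673) or 2 (adjusted p = 0.0795). The opposite was seen for Atrnl1, an attractin-like membrane protein, which read 383, 298 and 129 against 479, 752 and 580 (difference -1.28, SE 0.30, adjusted p = 0.0253) and lost its call without HTS-3 mouse 3 (adjusted p = 0.287) and without NTS-1 mouse 2 or 3 (adjusted p 0.202 and 0.0768). The count of this set was the more sensitive of the 2 sets to that mouse. Without it, 25 genes were in this set by the same rule, against 28 to 30 without any 1 of the NTS-1 mice, and 41 were in the set with the vehicle mean nearer to HTS-3. Without HTS-3 mouse 1 the latter held 77.

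Only 8 genes were higher after HTS-3 than after NTS-1, by 0.80 to 1.59 in log2. In 5 of them the vehicle mean lay nearer to NTS-1, with median differences from vehicle of 1.03 for HTS-3 and -0.15 for NTS-1. In the other 3 it lay nearer to HTS-3, with medians of 0.56 for HTS-3 and -0.57 for NTS-1. Pclaf, a PCNA-binding protein of replicating cells, read 124, 91.4 and 46.2 in HTS-3 mice, 40.7, 22.3 and 21.1 in NTS-1 mice and 22.1 to 24.7 in vehicle mice, at least 2.32-fold higher (adjusted p = 0.00143). It was 1 of 2 higher genes whose call was kept without any 1 mouse, the other being 4930430F08Rik (290, 250 and 252 against 146, 143 and 167, difference 0.80, SE 0.17, adjusted p = 0.00657). Both calls were lost with array weights (adjusted p 0.114 for Pclaf and 0.291 for 4930430F08Rik), under which 0 genes were higher, and with the compared groups alone (adjusted p 0.16 and 0.0817). Taf2, a subunit of the general transcription factor TFIID, read 1770, 722 and 1160 against 284, 490 and 701 (difference 1.31, SE 0.29, adjusted p = 0.0142). Its groups were apart by 701 to 722 only, and its call was lost without HTS-3 mouse 1 or 3 (adjusted p 0.135 and 0.061) and also when NTS-1 mouse 1 was left out (adjusted p = 0.207).

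The remaining 5 higher genes each lost their call without at least 1 mouse. Scd2, a stearoyl-CoA desaturase, read 94.5, 44.5 and 42.4 against 34.0, 16.6 and 15.3, at least 1.72-fold higher (adjusted p = 0.0453). Ro60, which binds small non-coding Y RNAs, read 113, 71.9 and 59.0 against 45.9, 39.6 and 22.6 (difference 1.18, SE 0.29, adjusted p = 0.0306). Lcmt2 read 249, 212 and 147 against 58.1, 110 and 109 (difference 1.15, adjusted p = 0.0386), Asxl2 98.0, 107 and 141 against 50.5, 50.6 and 54.8 (difference 1.13, adjusted p = 0.0413), and Cdk5rap1 227, 269 and 225 against 159, 90.7 and 121 (difference 0.99, adjusted p = 0.00655). Without NTS-1 mouse 1 the adjusted p of Lcmt2 was 0.384 and that of Asxl2 0.157, without NTS-1 mouse 3 that of Ro60 was 0.297 and that of Scd2 0.269, and without NTS-1 mouse 2 that of Cdk5rap1 was 0.119. Other probe sets of Asxl2 did not all have the same direction, while for 29 of the 30 called genes with several measured probe sets they did.

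Replication entry genes leaned towards HTS-3, with 15 of 17 differences positive and a median of 0.49, but Pclaf was the only one that passed. HTS-3 mouse 1 was above every NTS-1 mouse in 14 of the 17, mouse 2 in 6 and mouse 3 in 7, beside 4342, 3042 and 1899 of all 9137 genes tested. Without mouse 1 the median was 0.18. Mcm5, a subunit of the replicative helicase, read 681, 114 and 208 in HTS-3 mice and 239, 111 and 94.7 in NTS-1 mice. Cholesterol synthesis genes leaned the other way, with 19 of 20 differences negative, a median of -0.54 and 0 past the test. Hmgcs1, which makes HMG-CoA, read 3100, 11500 and 6210 against 11000, 15300 and 10200 (difference -0.99, 95% interval -1.92 to -0.05, adjusted p = 0.602). Without HTS-3 mouse 1 the median was -0.21, and without HTS-3 mouse 2 it was -0.89 with 1 gene lower.

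Lists of liver function showed few differences at 8 h. No member passed among 26 measured acute phase genes (median -0.0031), 16 cytochrome P450 genes (median -0.02), 17 genes of bile acid synthesis and transport (median 0.0044), 11 p53 targets (median 0.05), 13 genes of the integrated stress response (median 0.06), 18 of endoplasmic reticulum folding (median -0.10), 16 NRF2 and glutathione genes (median -0.01) or 19 of apoptosis and necroptosis (median -0.15). Hamp, the hepatic iron hormone hepcidin, read 59600, 60200 and 57400 in HTS-3 mice and 62600, 59500 and 64000 in NTS-1 mice (difference -0.07, SE 0.12). Mlkl, the effector of necroptosis and itself induced by interferon, read 268, 125 and 126 against 400, 439 and 269 (difference -1.16, SE 0.33, adjusted p = 0.086). Cdkn1a, the p53 target that arrests the cell cycle, read 41.4, 38.2 and 39.0 against 38.2, 38.2 and 29.1 (difference 0.18, SE 0.57). The value 38.2 recurs in both groups near the dim limit, so this probe set says little on Cdkn1a. These results show that no difference was detected with 3 mice a group, not that the gapmers act alike on these genes.

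**Figure D4:**
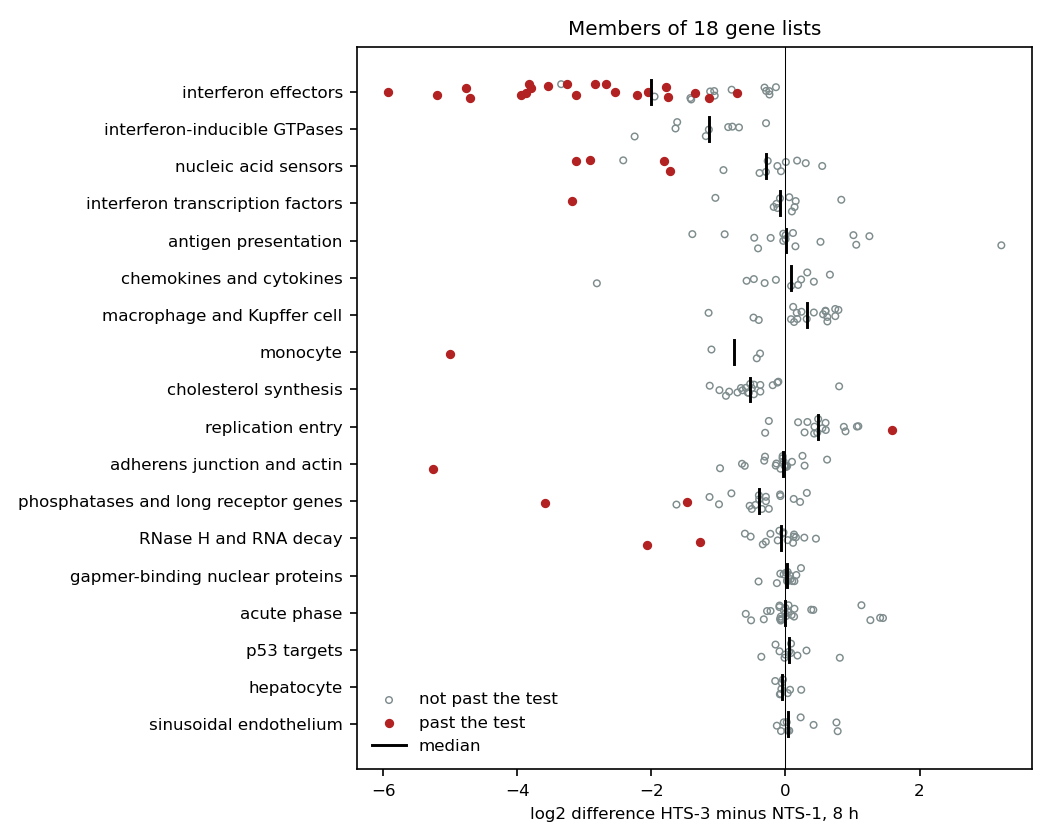
Difference HTS-3 minus NTS-1 at 8 h (log2) of each measured member of 18 gene lists, with members past the test filled, the others open and the list median as a bar. The interferon effectors extend to -5.93 with 21 of 34 filled and a median of -2.0, while the lists of liver function lie around 0 with no filled member among acute phase, p53 or hepatocyte genes.

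At 16 h, in other mice, the same comparison called 1942 genes (21.3%), 885 of them lower after HTS-3 (9.69%) and 1057 higher (11.6%). Of the 98 genes lower at 8 h, 85 were lower at 16 h too, and all 98 had the same sign. In the set with the vehicle mean nearer to NTS-1 at 8 h, 48 of 49 genes (98.0%) passed again, and the median difference went from -1.67 to -2.83. In the set with the vehicle mean nearer to HTS-3, 37 of 49 genes (75.5%) passed again, and the median went from -2.63 to -1.43. Of the 8 higher genes 4 were higher at 16 h as well. The test of the difference between the times called 174 genes (1.9%), 36 with a more positive difference at 16 h (0.394%) and 138 with a more negative one (1.51%). Of these 174 genes, 25 were among the 98. The 16 of them with the vehicle mean nearer to NTS-1 were all more negative at 16 h, and the 9 with the vehicle mean nearer to HTS-3 were all less negative. The 98 genes were chosen by their 8 h differences, which also enter this test. That choice favours a smaller difference at 16 h in advance, and its part in the smaller differences was not tested. With HTS-3 mouse 3 counted as a 16 h mouse, 30 genes passed the test of the difference between the times, and without HTS-3 16 h mouse 3, 392 did.

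Dock4 was among the genes that differed far more at 16 h. Its difference was -1.46 at 8 h and -5.08 at 16 h, a change of -3.62 (SE 0.40, adjusted p = 1.24e-06). B4galt1, a galactosyltransferase of the Golgi, went from -1.46 to -4.80 (change -3.34, SE 0.44, adjusted p = 2.64e-05), and Atrnl1 from -1.28 to -4.31 (change -3.03, SE 0.40, adjusted p = 2.64e-05). Atg10, an enzyme of autophagosome formation, and the SNARE protein gene Vti1a did not pass at 8 h, at -0.63 and -0.89, and were at -4.36 and -4.13 at 16 h. Afdn was already at -5.26 at 8 h and was at -6.08 at 16 h, a change of -0.83 that did not pass (adjusted p = 0.415). The HTS-3 mice at 16 h were under the dim limit for Dock4, Atrnl1, Vti1a and Afdn and in part for B4galt1 and Atg10, so the sizes at 16 h are those of the deposited values only. Hamp was -0.07 at 8 h and -1.95 at 16 h (change -1.88, adjusted p = 7.61e-09).

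In some interferon genes the difference was smaller at 16 h, which the choice of genes by their 8 h differences favours in advance. Oasl1 went from -5.20 to -1.80 (change 3.40, SE 0.82, adjusted p = 0.0212) and Phf11d from -3.94 to -2.66 (change 1.28, adjusted p = 0.0445). For Ifit1, Rsad2 and Irf7 the change did not pass, with differences of -4.38, -3.22 and -3.94 at 16 h. The plot of class medians by mouse shows that the NTS-1 mice at 16 h, which are other animals, lay below the NTS-1 mice of 8 h in the set with the vehicle mean nearer to HTS-3 and above the vehicle mice of 16 h.

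**Figure D5:**
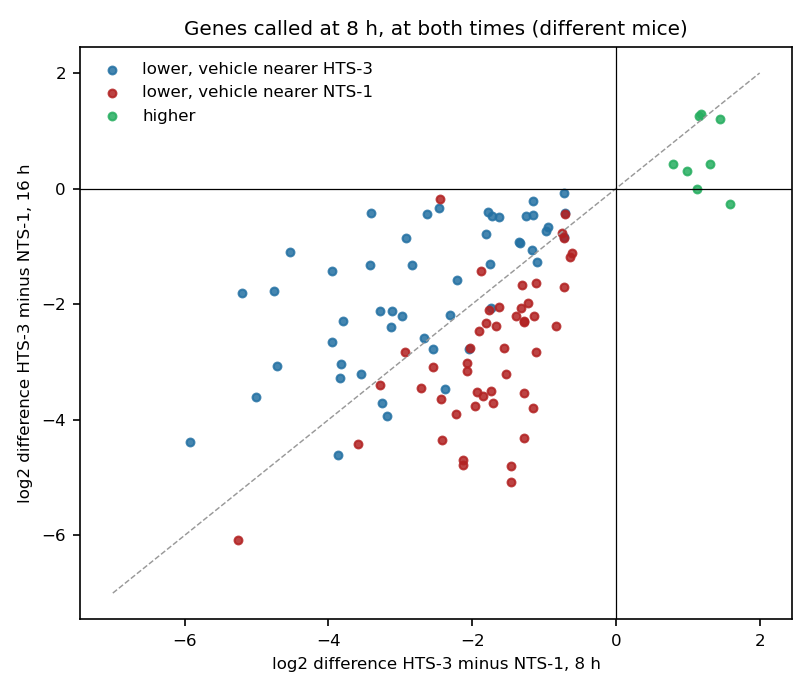
Difference HTS-3 minus NTS-1 (log2) at 8 h (x axis) and at 16 h (y axis, other mice) for the 106 genes called at 8 h, with the dashed line at equal differences. Genes with the vehicle mean nearer to NTS-1 (red) lie mostly below the line, with medians of -1.67 and -2.83, and genes with the vehicle mean nearer to HTS-3 (blue) lie mostly above it, with medians of -2.63 and -1.43, while the 8 higher genes are in green. The genes were chosen by their 8 h values, which favours smaller differences at 16 h.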

How the data were processed

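Liver RNA, amplified in a single round, was measured on Affymetrix mouse arrays, per the labels' protocols, and the table holds 45101 probe sets. The authors deposited RMA output, per the submitters' processing notes, as intensity on a linear scale (seen from the values). RMA background-corrects and normalizes arrays together, and no source used here gives its version. RMA compresses low signals, which makes folds of dim genes too small. They were converted to log2. A gene was represented by the probe set, annotated to 1 gene, with the highest mean over the 37 single-dose arrays. Genes at 32 or more on at least 3 of these arrays were tested, 9137 of 18194. Of the 106 called genes, 101 passed this filter on the other 31 arrays alone. limma 3.58.1 (R 4.3.3) was fitted once over 11 groups, with Benjamini-Hochberg adjustment over all genes tested, and was checked on simulated data. The number of arrays limits the precision. No 2 arrays held identical values.

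The genes named are the largest differences past the test, the largest in each list, the smallest p for the difference between times, a panel, and the largest members of lists with none past the test; further genes are named after their values were seen. The 46 lists, the panel and the members were chosen with earlier results of these data known. Alternatives changed the filter, the probe sets, the normalization, the variance model, array weights, the groups fitted, a replicate block, the time of 1 mouse, and left out each mouse in turn.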

Additional observations from a re-analysis of the deposited data

Results flagged for a closer look

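In the 23 genes with the largest differences, 9 of 69 groups of 4 mice (TS-2 at 8 h, HTS-3 and NTS-1 at 16 h) held a mouse whose gap to the nearest other exceeded the 95% critical value of Dixon's test. Chance flags about 1 in 20 groups, and groups of 3 were not tested. For Afdn these were HTS-3 16 h mouse 4 at a log2 intensity of 3.04 and NTS-1 16 h mouse 1 at 9.29. For Ddx60 they were TS-2 8 h mouse 2 at 2.64 and HTS-3 16 h mouse 2 at 2.25, and TS-2 8 h mouse 2 was also apart for Trim30d at 4.68. The remaining ones were TS-2 8 h mouse 4 for Scd2 at 4.65, NTS-1 16 h mouse 2 for Taf2 at 8.64, HTS-3 16 h mouse 1 for Ms4a4c at 2.92 and HTS-3 16 h mouse 4 for Rsad2 at 8.40. The values of Ms4a4c, Ddx60, Scd2 and Trim30d and that of Afdn in the HTS-3 mouse lie under the dim limit.

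The difference HTS-3 minus NTS-1 changed between 8 h and 16 h, by the limma test of that change, in further genes. It became more negative in Dock4 (change -3.62), Atg10 (-3.73), Rhbdd1 (-3.71), B4galt1 (-3.34), Vti1a (-3.24), Atrnl1 (-3.03), Ctage5 (-2.25), Hamp (-1.88) and Pclaf (-1.86). It moved upwards in Oasl1 (change 3.40), Ddx60 (2.98), Bmf (2.81), Gm9706 (2.51), Ifi209 (2.09), Cdk20 (1.84), Phf11d (1.28), Stx2 (1.17), Cyb5d1 (0.99) and Pgpep1 (0.56). In the interferon-stimulated Oasl1, Ddx60, Gm9706, Ifi209 and Phf11d the difference was smaller at 16 h, where Ddx60 was under the dim limit in all HTS-3 mice and most NTS-1 mice, and in Bmf, a pro-apoptotic gene, a difference of -0.68 at 8 h and 2.13 at 16 h.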

How the results depend on the processing

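All 106 called genes kept their direction wherever they were tested again, and 56 kept their call without any 1 mouse (36 with the vehicle mean nearer to HTS-3, 18 with it nearer to NTS-1, 2 higher). Among the named genes, 1652 of 1785 values under alternatives kept direction and call, 122 lost and 11 gained it, and 0 reversed. With array weights the counts were 41 for HTS-3 against NTS-1, 21 for HTS-3 against vehicle, 224 for NTS-1 against vehicle, 43 for the difference between times, 41 shared by 8 h and 16 h, 21 and 20 for the sets with vehicle nearer to HTS-3 and to NTS-1, and 12 interferon effectors. With the compared groups alone, 77 genes passed for HTS-3 against NTS-1, 52 of them among the 106. Calls lost there include Ifit2 (adjusted p = 0.0867), Oasl2 (0.0844), Usp18 (0.0737, and 0.0836 with array weights), Eif2ak2 (0.202) and Dock4 (0.432). The other counts in that setting were 53 against vehicle for HTS-3, 36 for NTS-1, 25 for the difference between times, 27 for the set with vehicle nearer to HTS-3 and 12 effectors. With HTS-3 mouse 3 moved to 16 h they were 61 called, 47 shared with 16 h, 30 for the difference between times and 16 for the set with vehicle nearer to NTS-1. Quantile normalization gave 134 for HTS-3 against vehicle. The causes were not tested.

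Leaving out 1 mouse at a time gave 74 to 127 called genes, 39 to 77 in the set with vehicle nearer to HTS-3, 25 to 44 in that with vehicle nearer to NTS-1, 63 to 87 shared with 16 h and 17 to 22 effectors. It gave 36 (without HTS-3 mouse 1) to 150 (without HTS-3 mouse 2) for HTS-3 against vehicle, which was 44 and 48 without vehicle mice 2 and 3. It gave 65 to 81 for NTS-1 against vehicle, and 108 (without NTS-1 8 h mouse 2) to 392 (without HTS-3 16 h mouse 3) for the difference between times. Same-numbered HTS-3 and NTS-1 mice had correlations of deviations of 0.03, -0.07 and 0.13, so the numbers do not pair the mice; with the replicate block 95 genes passed, 89 of them among the 106, and 52 for HTS-3 against vehicle. Signal over background limits 26 called genes, whose lower group had a mean under 32.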
